A study of Mus musculus with 32 samples.

Results

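The comparison set Tregs cultured for 18 h with an agonist of 4-1BB against Tregs cultured for 18 h without one, and was defined by the library titles. It took 6 of the 32 libraries of the series, 3 with the 4-1BB agonist and 3 controls, and covered all genes. In both groups the cells were purified Foxp3/GFP+ Tregs of C57BL/6 mice aged 2.5 months that carry the Foxp3-IRES-GFP knock-in, in which green fluorescent protein is made from the Foxp3 locus. Both groups were stimulated on coated antibodies to CD3 and CD28, which stand in for antigen and CD28 costimulation, with mouse IL-2 at 10 ng/ml. The 4-1BB agonist libraries had in addition the anti-4-1BB antibody 3H3 at 10 µg/ml, and the control libraries are labelled as having no agonist. The labels name no isotype control antibody, and they do not say whether libraries of a group came from separate mice or cultures, so p-values measure the spread between these libraries, which may be technical. Libraries with agonists of TNFR2 (STAR2, 12 ng/ml), DR3 (TL1A, 12 ng/ml) and OX40 (OX40L, 100 ng/ml) at 18 h were used for comparison. So were libraries with the 4-1BB agonist and without agonist at 36 h. There were 3 of each, except 2 with the OX40 agonist. Levels in 3 libraries titled resting Treg, from mice also aged 2.5 months, are given beside a few genes. These are listed with no culture time, agonist or IL-2.

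4-1BB (CD137, gene Tnfrsf9) is a receptor of the tumour necrosis factor (TNF) receptor superfamily that activated T cells and Tregs put on their surface. Its ligand 4-1BBL, or a crosslinking antibody, clusters the receptor, which then recruits TRAF adaptor proteins and the ubiquitin ligases cIAP1 and cIAP2. These switch on the classical NF-kB pathway, in which the inhibitor IkBα is destroyed and p50 and RelA or c-Rel enter the nucleus, and the alternative pathway, in which the kinase NIK is stabilised and p100 (gene Nfkb2) is cut to p52, the partner of RelB. NF-kB in turn raises its own inhibitors, and in T cells 4-1BB is known for promoting division and survival.

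The 6 libraries held 18696907 to 21315072 expected counts with the 4-1BB agonist and 17662427 to 20004351 in controls. In a principal component analysis of these 6 libraries the first component took 65.1% of the variance, and the agonist libraries lay at 15.4 to 16.3 on it and the controls at -16.7 to -14.8. Levels are CPM, counts per 1000000 of the scaled library size, and a gene was called changed when its edgeR quasi-likelihood p, adjusted by Benjamini-Hochberg over 14313 genes, was below 0.05. Of the 10 Treg and T cell markers 1, Foxp3, was higher and 6, Ctla4, Cd5, Trac, Cd3d, Cd3e and Cd3g, were lower, with a median log2 fold change of -0.28, and they summed to 6549 to 6737 CPM with the agonist and 7036 to 7227 CPM in controls. The defining markers of Tregs were present in all 6 libraries: Foxp3 was at 651, 627 and 645 CPM with the agonist against 584, 579.5 and 582 CPM in controls, and Il2ra, which encodes CD25 and was not called, at 3238, 3232 and 3341 CPM against 3261, 3245 and 3239 CPM. The 18 myeloid and dendritic cell markers summed to 32.1 to 36.5 CPM with the agonist and 33.8 to 36.1 CPM in controls, most of it Cst3, and 9 of them were at 0 in all 6 libraries, among them Itgam, Cd14, Clec9a and Siglech. The 12 markers of CD8, NK and gamma-delta T cells summed to 8.83 to 11.8 CPM against 8.71 to 9.80 CPM, and the 12 of erythroid cells and platelets to 6.05 to 7.12 CPM against 9.45 to 10.7 CPM. The 12 conventional helper T cell markers summed to 54.4 to 59.7 CPM with the agonist and 60.6 to 67.3 CPM in controls. The 14 B cell markers summed to 412 to 430 CPM with the agonist and 296 to 327 CPM in controls, nearly all of it Ighm, the member that was called, at 401, 406 and 417 CPM with the agonist against 310.5, 288 and 307 CPM in controls. Cd79a, at 0.373, 0.376 and 0.429 CPM against 0.112, 0.108 and 0.148 CPM, was not called, and without control replicate 2 another member was called lower. Igkc, an immunoglobulin light chain gene outside that list, was higher, at 16.5, 13.6 and 6.38 CPM with the agonist against 6.21, 4.18 and 5.79 CPM in controls, but not in a fit of the 6 libraries alone (edgeR adjusted p = 0.126). A transcript of the ribosomal RNA locus on chromosome 17 set the control libraries apart: with its neighbours it took 4551, 1656 and 2480 CPM with the agonist, against 10360, 26260 and 8254 CPM in controls. All controls lay above all agonist libraries in this measure, so its part and the part of the agonist in a result cannot be told apart by groups alone. Counts without the libraries above 10000 CPM of this locus are therefore given beside each gene group whose count they change by more than 1.5 times.

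With the 4-1BB agonist, 3690 of 14313 genes differed from the control, or 25.8% of those tested. Of these, 1814 were higher with the agonist (12.7%) and 1876 lower (13.1%). Counts of called members of the gene lists below are to be read beside these shares. Most changes were small, and the median size of the log2 fold change was 0.32 among the called genes and 0.14 over all genes tested, and the median log2 fold change over all genes was 0. At least 2-fold changes were called for 470 genes (3.28%), 237 higher (1.66%) and 233 lower (1.63%), and 326 of these 470 genes had under 5 CPM in the group where they were higher. The 3 and 3 libraries did not overlap for 21.5% of the genes in the higher direction and 21.2% in the lower one. With the share of the ribosomal locus as a covariate 3135 genes were called. Without the libraries above 10000 CPM of that locus, which leaves 1 control library at 18 h whose spread is taken from the other groups, 1888 genes were called, 840 higher and 1048 lower. In these whole-culture samples, fewer cells of one kind and less RNA per cell cannot be told apart.

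**Figure D1:**
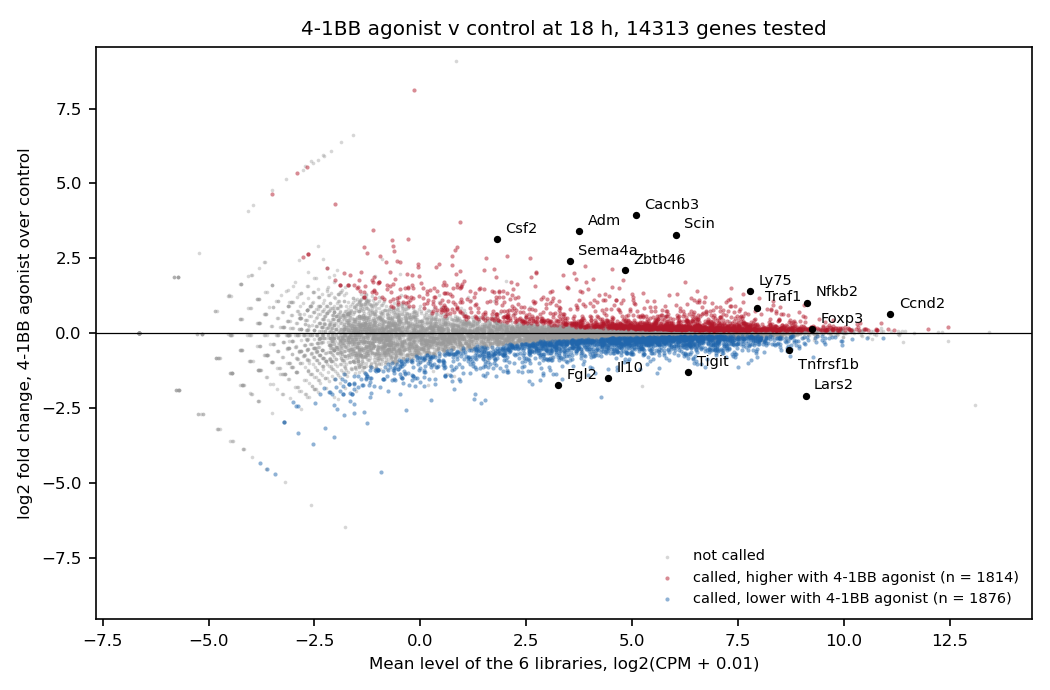
Each point is 1 of the genes tested, with its mean level over the 6 libraries, as log2(CPM + 0.01), on the x axis and the log2 fold change of 4-1BB agonist over control at 18 h on the y axis. Called genes are coloured by direction, 1814 higher and 1876 lower, and labelled genes are described in the text, with the widest spread at the lowest levels.

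Among genes of at least 5 CPM in the higher group, the largest rises were those of Cacnb3, Adm, Scin and Csf2. Cacnb3, which encodes a beta subunit of voltage-gated calcium channels (ENSMUSG00000003352, mm10 chromosome 15, 98630840 to 98644529), had 66.5, 61.1 and 64.5 CPM with the agonist against 4.59, 3.75 and 4.2 CPM in controls. The groups lay far apart, with a log2 fold change of 3.94 ± 0.08 (SE; edgeR adjusted p = 6.73e-37), and resting Tregs held 1.28 ± 0.216 CPM (SD, n = 3). Adm, the gene of the vasodilating peptide adrenomedullin (ENSMUSG00000030790, mm10 chromosome 7, 110627661 to 110629820), had 25.2, 26 and 23 CPM against 2.13, 2.82 and 2.08 CPM in controls, a log2 fold change of 3.40 ± 0.12 (SE). Scin, which encodes the actin-severing protein scinderin (ENSMUSG00000002565, mm10 chromosome 12, 40059769 to 40134228), had 114, 120 and 124 CPM against 11.1, 12.2 and 13.2 CPM in controls, a log2 fold change of 3.29 ± 0.07 (SE). Csf2, the gene of the cytokine GM-CSF (ENSMUSG00000018916, mm10 chromosome 11, 54247271 to 54249667), was low but separate, at 5.92, 6.81 and 6 CPM with the agonist against 0.728, 0.543 and 0.841 CPM in controls. Resting Tregs held 0.0986 ± 0.122 CPM of Adm and 0.0465 ± 0.0411 CPM of Csf2 (SD, n = 3 each).

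Further genes with large rises encode proteins of several kinds. Sema4a, a semaphorin that acts on T cells, had 19.4, 19.1 and 19.6 CPM with the agonist against 4.53, 3.09 and 3.41 CPM in controls. Zbtb46, a transcription factor best known as a mark of classical dendritic cells, had 47.5, 43.7 and 47.2 CPM against 10.1, 10.6 and 11.4 CPM. Casz1, a zinc finger transcription factor, had 38.3, 37.3 and 37.8 CPM against 8.56, 9.23 and 8.06 CPM. The rule that named these genes admitted only genes without overlap between the groups, so their lack of overlap is no separate result. The secreted signal Wnt3 had 24.4, 23.3 and 25.5 CPM with the agonist against 4.98, 5.75 and 4.65 CPM in controls, and Kynu, an enzyme of tryptophan breakdown, 21, 19.9 and 18.6 CPM against 5.93, 5.86 and 5.24 CPM. Cdk5r1, the activating subunit of the kinase CDK5, had 27.4, 26.2 and 25.7 CPM against 7.28, 7.38 and 7.96 CPM, and Mex3a, an RNA-binding protein, 40.4, 41.9 and 45.2 CPM against 12.6, 12.9 and 11.9 CPM. Log2 fold changes of these 7 genes lay between 1.77 and 2.40. Ccdc184, Cercam, Bmp1, Slc7a10, Hspg2, Mreg, Idi2, Fnbp1l and Timd2 complete the 20 largest rises among genes of at least 5 CPM in the higher group, with log2 fold changes between 1.86 and 2.56.

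**Figure D2:**
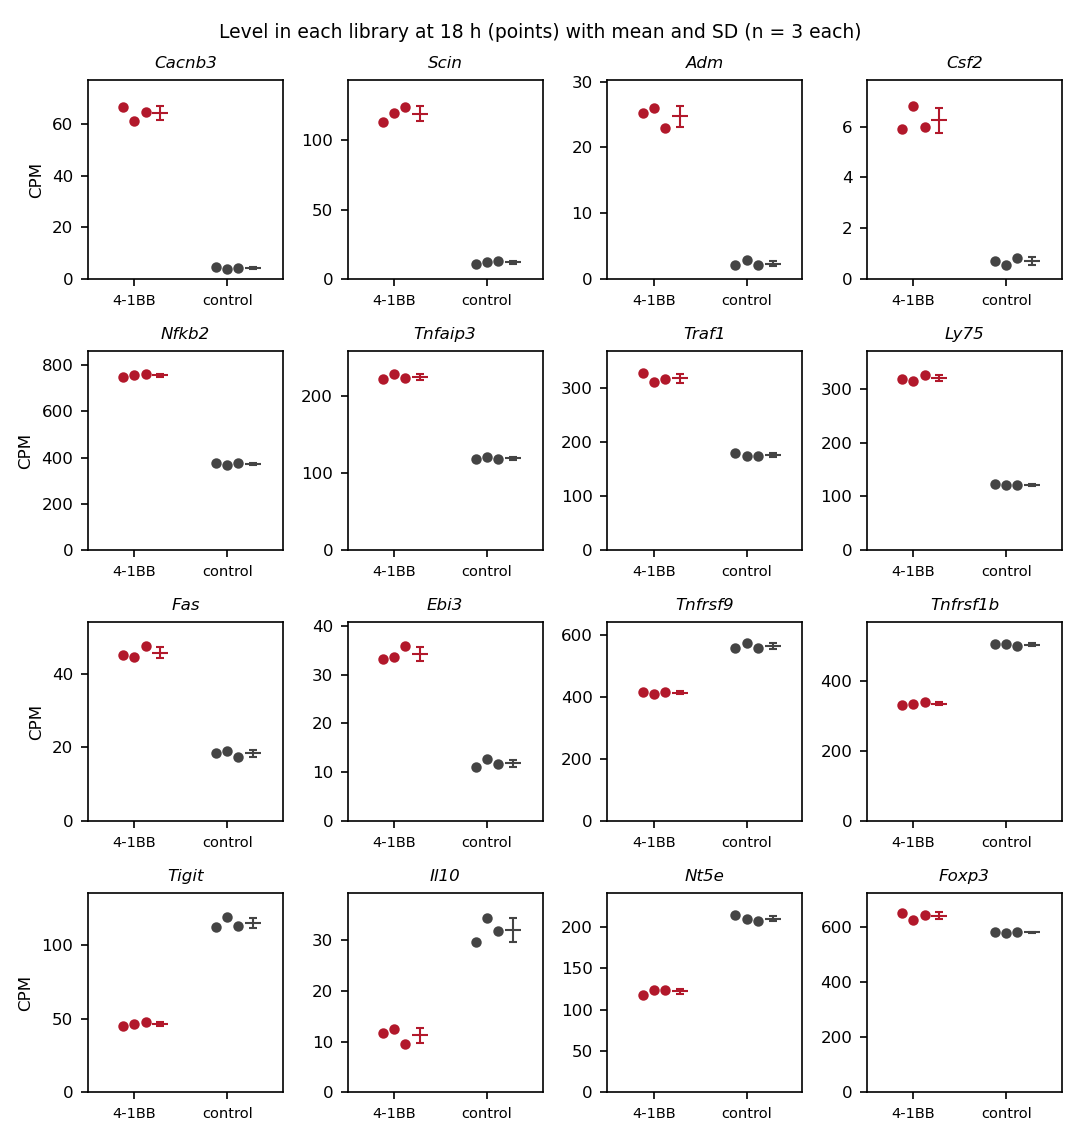
Level of 16 genes in CPM in each library at 18 h, 4-1BB agonist left and control right, with the mean and SD of 3 libraries beside the points. The groups do not overlap in any of the 16 genes. Over all genes tested this held for 21.5% in the higher direction and 21.2% in the lower one. Cacnb3, Scin, Adm, Csf2, Nfkb2, Tnfaip3, Traf1, Ly75, Fas, Ebi3 and Foxp3 are higher with the agonist, and Tnfrsf9, Tnfrsf1b, Tigit, Il10 and Nt5e lower.

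The receptor that the agonist binds was itself lower. Tnfrsf9 (ENSMUSG00000028965, mm10 chromosome 4, 150914562 to 150946102) had 418, 410.1 and 418 CPM with the 4-1BB agonist against 561, 576 and 558 CPM in controls, with no overlap and a log2 fold change of -0.44 ± 0.04 (SE; edgeR adjusted p = 1.89e-14). Its ligand gene Tnfsf9 moved the other way at a low level, with 7.14, 6.67 and 6.97 CPM against 2.85, 2.44 and 3.56 CPM in controls. Of the 21 members of the list of the receptor and its signalling proteins, all tested, 5 were higher (23.8%), 6 lower (28.6%) and 10 not called. Their median log2 fold change was 0.02. Traf1, the adaptor that NF-kB induces and that joins TRAF2 at the receptor, had 326, 309.7 and 317 CPM with the agonist against 180.1, 174 and 174 CPM in controls. Birc2 and Birc3, which encode cIAP1 and cIAP2, rose by 0.62 ± 0.05 and 0.35 ± 0.04 on the log2 scale (SE), and Tab2, a ubiquitin-binding partner of the kinase TAK1, by 0.48 ± 0.04. Among the members that fell, Traf3, the adaptor that keeps NIK low, had 135, 133 and 131 CPM against 153, 147 and 150.5 CPM, Map3k14, the NIK gene itself, 34.8, 36.7 and 38 CPM against 46.9, 42.3 and 43.1 CPM, and Traf5 21.8, 19.9 and 20 CPM against 23.3, 27.9 and 24.3 CPM. Map3k5 and Lgals9 fell by 0.20 and 0.26 on the log2 scale. Traf2 had 49.3, 54.1 and 52 CPM against 54.7, 50.3 and 52.9 CPM, with overlapping groups, and none of the genes of the IKK kinase complex, Ikbkb, Ikbkg and Chuk, was called, nor Rnf31, Rbck1 and Sharpin of the linear ubiquitin ligase. The lower count was 3, and Map3k14, Map3k5 and Traf5 were not called, without the libraries above 10000 CPM of the ribosomal locus, with edgeR adjusted p between 0.0621 and 0.0686.

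NF-kB subunits were higher in 4 of 5 cases, with a median log2 fold change of 0.20. Nfkb2 (ENSMUSG00000025225, mm10 chromosome 19, 46304320 to 46312385) moved most, with 749, 754 and 761 CPM with the agonist against 376, 368 and 376 CPM in controls, a log2 fold change of 1.02 ± 0.03 (SE; edgeR adjusted p = 1.59e-28). Relb, its partner in the alternative pathway, had 110.3, 103 and 107 CPM against 75.2, 73.7 and 74.2 CPM in controls, and a log2 fold change of 0.52 ± 0.04 (SE). The classical subunits had smaller values, with log2 fold changes of 0.20 ± 0.03 for Nfkb1, 0.16 ± 0.05 for Rela and -0.09 ± 0.04 for Rel (SE), and Rel was not called (edgeR adjusted p = 0.107). In an edgeR fit of the 6 libraries alone Rel was called lower (adjusted p = 0.000541), and over all its alternatives the adjusted p lay between 0.000541 and 0.378. On the per-length scale of the deposited TPM, the level of Nfkb2 was 425 ± 4.86 with the agonist against 214 ± 6.29 in controls, and that of Nfkb1, the most abundant subunit in both groups, 749.7 ± 8.3 against 673 ± 6.51 (SD, n = 3 each). By unadjusted p below 0.05, 4 of the 5 subunits were higher and 1, Rel, lower. Rela was not called without 4-1BB agonist replicate 3, without control replicate 2, without control replicate 3 or without the libraries above 10000 CPM of the ribosomal locus (edgeR adjusted p 0.0605 to 0.0910).

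In the list of NF-kB inhibitors and feedback genes 12 of 20 rose and 3 fell, with a median log2 fold change of 0.24 beside 0 over all genes. The list also holds nuclear IkB genes, so its counts are not of inhibitors alone. Nfkbia, which encodes IkBα, had 476, 462 and 467 CPM with the agonist against 254, 254 and 256 CPM in controls. Tnfaip3, the gene of the ubiquitin-editing enzyme A20, had 221, 229 and 223 CPM against 118, 121 and 118 CPM. Nfkbie and Nfkbib, the genes of IkBε and IkBβ, had log2 fold changes of 0.86 ± 0.05 and 0.72 ± 0.04 (SE), and the A20-binding protein Tnip1 and the nuclear IkB protein Bcl3 0.51 ± 0.04 and 0.56 ± 0.05. The groups were separate for all of these. The other nuclear IkB genes went down: Nfkbid had 101, 99.7 and 96.4 CPM against 162, 149 and 154 CPM in controls, and Nfkbiz 53.9, 52.3 and 45.2 CPM against 63.8, 55.9 and 64.4 CPM. The call of Nfkbiz was lost without 4-1BB agonist replicate 3, without control replicate 1 or 3 and without the libraries above 10000 CPM of the ribosomal locus (edgeR adjusted p 0.0730 to 0.122). Peli1, a ubiquitin ligase that limits T cell activation, was the third member to fall, at 86.8, 85.3 and 81.5 CPM against 131, 126 and 127 CPM. Cyld, Zc3h12a, Itch, Rnf11 and Nfkbil1 were not called.

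Known NF-kB target genes were higher in 20 of the 32 tested (36 listed), 9 of them at least 2-fold, and lower in 1, with a median log2 fold change of 0.46. Icam1, an adhesion molecule, had 200.1, 200.5 and 199 CPM with the agonist against 97.2, 97.6 and 96.8 CPM in controls. Cd83 had 139.5, 139 and 140 CPM against 68.7, 67.6 and 66.6 CPM, Gadd45b, a stress sensor, 126, 137 and 129 CPM against 71.2, 69.5 and 72.4 CPM, and the actin-linked Marcksl1 173, 178 and 172 CPM against 98.7, 98.1 and 91.5 CPM. The spread within groups was small beside these gaps. Cxcl10, a chemokine, had 18.8, 15.5 and 15.7 CPM with the agonist against 6.6, 4.99 and 6.18 CPM in controls, and Ebi3, a subunit shared by interleukin-27 and interleukin-35, 33.3, 33.5 and 35.8 CPM against 11.1, 12.7 and 11.7 CPM. Tnf was the single member to fall, at 94.5, 102 and 94 CPM against 126, 137 and 136 CPM. Il2ra, Lta, Irf1 and Cd69 were among the 11 members not called.

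Promoter windows of 300 bases, from 250 before to 50 after the annotated start, were searched on both strands for the kB letters, which are GGG, any 2 bases, TT, any base and CC, and 3 windows of risen genes are shown because they carry a match. Sequences are RefSeq's on GRCm38.p6, 5′ to 3′ in the gene's direction, capitals mark the kB match on either strand, and the windows were chosen after their values were seen.
Nfkb2 (chr19:46304487-46304786, plus strand): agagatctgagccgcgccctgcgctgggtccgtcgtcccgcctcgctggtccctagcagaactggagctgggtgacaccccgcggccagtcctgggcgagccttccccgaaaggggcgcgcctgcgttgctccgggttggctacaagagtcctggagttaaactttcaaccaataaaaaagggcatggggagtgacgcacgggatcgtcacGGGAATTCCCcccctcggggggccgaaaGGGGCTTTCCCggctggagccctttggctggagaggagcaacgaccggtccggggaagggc
Ebi3 (chr17:55952373-55952672, plus strand): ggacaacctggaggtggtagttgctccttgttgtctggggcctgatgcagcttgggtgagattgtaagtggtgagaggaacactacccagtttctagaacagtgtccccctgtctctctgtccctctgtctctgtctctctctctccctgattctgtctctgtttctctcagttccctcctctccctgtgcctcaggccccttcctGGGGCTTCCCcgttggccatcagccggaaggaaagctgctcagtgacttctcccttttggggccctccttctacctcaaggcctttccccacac
Cxcl10 (chr5:92348840-92349139, minus strand): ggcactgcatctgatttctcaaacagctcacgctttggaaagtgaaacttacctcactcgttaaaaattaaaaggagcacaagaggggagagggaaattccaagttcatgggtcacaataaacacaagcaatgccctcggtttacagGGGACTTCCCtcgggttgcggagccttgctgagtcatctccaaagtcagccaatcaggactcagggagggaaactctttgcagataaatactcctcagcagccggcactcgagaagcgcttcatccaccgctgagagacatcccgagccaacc
The Nfkb2 window holds 3 matches, of which 2 overlap in a single run of capitals, and the Cxcl10 window also holds an AP-1 match, described further on, in lower case. A kB match was present in 5.60% of the 11738 windows of tested genes, in 7.22% of the 1732 windows of genes called higher and in 4.98% of the 1706 windows of genes called lower. Among windows of genes that rose at least 2-fold to at least 5 CPM it was present in 9 of 89, or 10.1%, which belong to 7 genes: Cxcl10, Dhrs3, Ebi3, Ncf1, Nfkb2, Plagl1 and Slc7a10. Windows of alternative starts of a gene can overlap, and a match describes letters only.

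Receptors of the TNF superfamily moved in both directions: of 23 tested (26 listed), 5 were higher (21.7%), 8 lower (34.8%) and 10 not called. Their median log2 fold change was -0.08. Fas, the death receptor CD95, had 45.1, 44.5 and 47.5 CPM with the agonist against 18.5, 19.1 and 17.5 CPM in controls, a log2 fold change of 1.32 ± 0.06 (SE; edgeR adjusted p = 2.79e-23). Tnfrsf8, which encodes CD30, had 169.9, 177 and 174 CPM against 113, 109.8 and 110 CPM. Tnfrsf11a, which encodes RANK, and Cd40 were low and higher with the agonist, at 5.76, 4.04 and 5.04 CPM and 3.04, 4.23 and 3.16 CPM, against 0.728, 0.814 and 1.04 CPM and 0.895, 1.63 and 1.58 CPM in controls. The TRAIL receptor gene Tnfrsf10b rose by 0.37 ± 0.06 on the log2 scale (SE). Among the members that fell, Tnfrsf1b, which encodes TNFR2, had 332, 336 and 342 CPM with the agonist against 507, 508 and 501 CPM in controls, and Cd27 88.1, 88.8 and 87.6 CPM against 133, 125 and 128 CPM. Tnfrsf4 and Tnfrsf18, the genes of OX40 and GITR, were among them with log2 fold changes of -0.18 ± 0.04 and -0.13 ± 0.04 (SE). Tnfrsf25, which encodes DR3, had 38.2, 35.9 and 36 CPM against 39.4, 38.4 and 38.4 CPM, and was not called (edgeR adjusted p = 0.409). Tnfrsf21 was also lower, at 5.54, 4.23 and 5.9 CPM against 6.38, 8.25 and 6.88 CPM, and so were Tnfrsf23 and Tnfrsf26. Single libraries decided some of these calls: Tnfrsf21 was not called without 4-1BB agonist replicate 2 or control replicate 2, Tnfrsf26 without 4-1BB agonist replicate 3 or control replicate 1, and Tnfrsf18 without 4-1BB agonist replicate 1. With the share of the ribosomal locus as a covariate 5 receptors were lower. Tnfrsf21, Tnfrsf23 and Tnfrsf26 were then not called (edgeR adjusted p 0.0595 to 0.339). The lower count was 4 without the libraries above 10000 CPM of the ribosomal locus.

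Ligands of the superfamily were higher in 6 and lower in 6 of the 14 tested (17 listed). Tnfsf8, the CD30 ligand gene, had 363, 377 and 361 CPM with the agonist against 222, 209 and 206 CPM in controls. Cd70, the ligand of CD27, had 2.72, 2.44 and 3.16 CPM against 0.504, 0.488 and 0.693 CPM, and Tnfsf15, which encodes the DR3 ligand TL1A, 4.11, 4.84 and 4.93 CPM against 0.839, 1.36 and 1.04 CPM. Ltb, which encodes lymphotoxin β, and Tnfsf4, which encodes OX40L, rose by 0.37 ± 0.05 and 0.42 ± 0.14 on the log2 scale (SE). Besides Tnf, the members that fell were Cd40lg, the CD40 ligand gene, at 12.5, 12.1 and 12.6 CPM against 19.5, 23.5 and 20.7 CPM, Tnfsf10, which encodes TRAIL, at 58.3, 59.7 and 59.3 CPM against 78.5, 82.3 and 83.4 CPM, and Fasl, Tnfsf14 and Tnfsf13b. Tnfsf13b, which encodes BAFF, lost its call without any one of 5 of the 6 libraries, control replicate 1 being the exception, and Tnfsf4 without replicate 1 or 2 of the agonist or replicate 1 or 3 of the control. Without the libraries above 10000 CPM of the ribosomal locus 5 ligands were higher and 3 lower.

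Genes of antigen presentation and of activated dendritic cells were higher in 15 of the 29 tested (30 listed) and lower in 1, with a median log2 fold change of 0.32. Cd80, a ligand of CD28 and CTLA-4, had 23.8, 23 and 22.3 CPM with the agonist against 6.83, 6.73 and 7.52 CPM in controls, and Cd86 26.9, 27.4 and 27.9 CPM against 19, 18 and 20 CPM. Ccr7, the receptor that guides cells to lymph nodes, had 408, 410 and 421 CPM against 296, 302 and 292 CPM. The class I genes H2-K1, H2-D1 and B2m rose by 0.33, 0.29 and 0.32 on the log2 scale. Tapbp, Cd74 and H2-DMa were also higher and Nlrc5 was lower, while Tap1, Tap2, Psmb8, Psmb9 and Psmb10 were not called. The class II gene H2-Aa had 0.8, 1.17 and 1.5 CPM against 1.51, 1.3 and 1.29 CPM, with overlapping groups, and was not called. Neither were H2-Ab1, H2-Eb1, H2-DMb1, H2-DMb2 and Ciita. Ly75, the endocytic receptor DEC-205, which stands outside this list, had 317, 316 and 326 CPM with the agonist against 122, 120.3 and 121 CPM in controls, and a log2 fold change of 1.40 ± 0.04 (SE). The summed dendritic and myeloid markers differed little between the groups, as given above, and Ighm was the B cell marker that was higher; its part in these counts was not tested. The single lower member was not called without the libraries above 10000 CPM of the ribosomal locus.

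**Figure D3:**
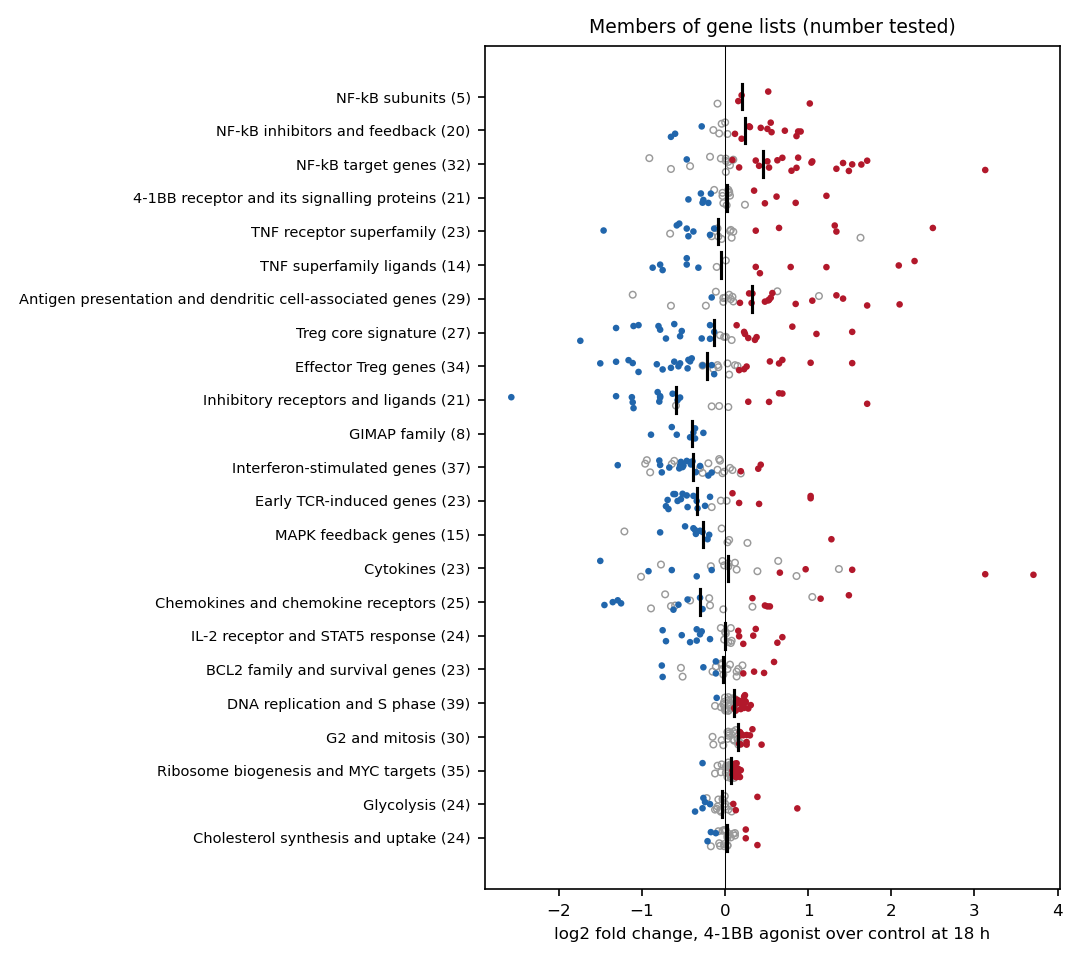
Log2 fold change of 4-1BB agonist over control at 18 h for the tested members of 23 gene lists, each list's number of tested members in brackets. Filled points were called (red higher, blue lower), open points were not, and the black bar is the median; the bar of NF-kB target genes lies at 0.46 and that of inhibitory receptors at -0.59.

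Treg signature genes split, and more fell than rose. Foxp3 (ENSMUSG00000039521, mm10 chromosome X, 7573644 to 7595245), the factor that defines the lineage, was higher by 0.14 ± 0.04 on the log2 scale (SE; edgeR adjusted p = 0.00194), with 641 ± 12.2 CPM with the agonist and 582 ± 2.11 CPM in controls (SD, n = 3 each). Il2ra, Ikzf2 and Cd4 were not called, though Ikzf2 was called lower in an edgeR fit of the 6 libraries alone, with a log2 fold change of -0.06. Of the 27 Treg core genes tested (28 listed), 9 were higher and 14 lower, with a median log2 fold change of -0.13. Besides Foxp3 and Ebi3 the risen members include Swap70, a signalling adaptor, at 386, 401 and 397 CPM with the agonist against 229, 219.6 and 228 CPM in controls, and Ikzf4, which encodes the factor Eos, at 354, 328 and 345 CPM against 268, 256 and 263 CPM. Among the fallen members, Izumo1r, which encodes the folate receptor FR4, had 184, 180 and 182 CPM against 318, 318 and 312 CPM, and Gpr83, a G protein-coupled receptor, 136, 129 and 137 CPM against 226, 216 and 214 CPM. Il2rb, the IL-2 receptor β chain, fell by 0.28 on the log2 scale and Lrrc32, which encodes GARP, by 0.18. Without the libraries above 10000 CPM of the ribosomal locus 6 of the core genes were higher and 12 lower, and Foxp3, Lrrc32 and Lag3 were not called (edgeR adjusted p = 0.127 for Foxp3, 0.121 for Lrrc32 and 0.0669 for Lag3).

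Genes of suppressive and inhibitory molecules were mostly lower. Of the 21 tested inhibitory receptors and ligands (24 listed), 12 fell and 5 rose, with a median log2 fold change of -0.59, against 0 over all genes. Tigit (ENSMUSG00000071552, mm10 chromosome 16, 43648867 to 43664146), an inhibitory receptor of T and NK cells, had 44.8, 46.4 and 48 CPM with the agonist against 112, 119 and 113 CPM in controls, a log2 fold change of -1.31 ± 0.05 (SE; edgeR adjusted p = 4.24e-28). Ctla4, the receptor that competes with CD28 for CD80 and CD86, had 361, 353 and 345 CPM against 521, 509.7 and 509 CPM, and Pdcd1, which encodes PD-1, 54.3, 54 and 56.9 CPM against 94.8, 94.1 and 95.5 CPM. Nt5e and Entpd1, which encode the adenosine-generating enzymes CD73 and CD39, both fell: Nt5e had 118, 124 and 124 CPM against 214, 209 and 207 CPM, and Entpd1 6.83, 7.66 and 8.63 CPM against 15.6, 16.8 and 17 CPM. Vsir, which encodes VISTA, had 122, 127 and 128 CPM with the agonist against 228, 216 and 217 CPM in controls. The risen members were Cd80, Cd86, Cd200, Btla and Lag3; Btla, the partner of HVEM, had 213, 212 and 208 CPM against 135, 130.1 and 129 CPM, and Cd200, the ligand of an inhibitory receptor, 261, 261 and 257 CPM against 159, 168 and 170.4 CPM.

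In the list of effector Treg genes 18 of 34 were lower and 8 higher, with a median log2 fold change of -0.21. The lower count includes Bach2, described below, so it is not a count of effector genes alone. Il10 (ENSMUSG00000016529, mm10 chromosome 1, 131019845 to 131024974), the suppressive cytokine, had 11.6, 12.4 and 9.6 CPM with the agonist against 29.6, 34.4 and 31.8 CPM in controls, a log2 fold change of -1.50 ± 0.10 (SE; edgeR adjusted p = 3.83e-16). Fgl2, a secreted suppressive molecule of Tregs, had 4.27, 4.88 and 4.07 CPM against 14.4, 14 and 15.8 CPM. Batf, an AP-1 factor that tissue Tregs need, went up, at 132, 128 and 127 CPM against 61.9, 60.7 and 66.5 CPM, while Bach2, a repressor of effector genes, was lower, at 206, 201 and 203 CPM against 270.4, 269 and 267 CPM. Ccr8, a chemokine receptor of activated Tregs, had 107, 103 and 105 CPM with the agonist against 158, 153 and 152 CPM in controls, and Gzmb, the granzyme B gene, 9.97, 10.8 and 9.01 CPM against 18.2, 17.8 and 17.1 CPM.

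Cytokine genes were mostly low: 5 of 23 tested (32 listed) were higher and 5 lower (21.7% each), beside 12.7% and 13.1% of all genes. Besides Ebi3 and Csf2 the higher ones include Il9, at 3.57, 3.38 and 3.7 CPM with the agonist against 0.224, 0.326 and 0.247 CPM in controls, and Il21, at 1.44, 1.88 and 1.55 CPM against 1.12, 0.434 and 0.94 CPM, which was not called without 4-1BB agonist replicate 2 or without control replicate 2. Besides Il10 the lower ones include Osm, at 25.9, 26 and 24.4 CPM against 32.9, 31.8 and 32 CPM, and Tgfb1, at 334, 321 and 325 CPM against 373, 364 and 359 CPM. Il2, Il4, Il5, Il13 and Ifng were not called by edgeR. Il13 was called higher by DESeq2 (adjusted p = 0.0419) and in an edgeR fit of the 6 libraries alone (adjusted p = 0.0111), and its adjusted p lay between 0.00811 and 0.459 over all alternatives. Il5 was called higher without 4-1BB agonist replicate 2 (edgeR adjusted p = 0.0490). Counts of 5 and 5 became 3 and 3 without the libraries above 10000 CPM of the ribosomal locus, without control replicate 2 alone 3 cytokines were higher, and without 4-1BB agonist replicate 3 or control replicate 3 alone 3 were lower. Among 25 tested chemokines and chemokine receptors (33 listed), 6 were higher and 9 lower, and 4 were higher without the libraries above 10000 CPM of the ribosomal locus. Ccr4 and Ccr7 rose by 0.54 ± 0.04 and 0.48 ± 0.03 on the log2 scale (SE). Cxcr6 had 9.6, 9.06 and 10.8 CPM with the agonist against 23.9, 25.4 and 25.8 CPM in controls. In the list of cytotoxic genes, with 5 higher and 4 lower of 11 tested (18 listed), the protease inhibitors Serpinb9 and Serpinb6b stood out with 119, 125 and 121 CPM and 61.2, 60.5 and 63.8 CPM with the agonist, against 58.5, 54 and 55.4 CPM and 28.9, 30.2 and 28.7 CPM in controls. The lower count of that list was 1 without the libraries above 10000 CPM of the ribosomal locus.

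Genes that the T cell receptor (TCR) induces early were lower in 15 of 23 and higher in 5, with a median log2 fold change of -0.34. Egr2 and Egr3, zinc finger factors of TCR signalling, had 64.9, 61.2 and 65.1 CPM and 61.2, 62.5 and 59.7 CPM with the agonist, against 102, 101 and 105 CPM and 99.8, 97 and 103 CPM in controls. Nr4a1, which encodes the orphan receptor Nur77, had 296, 296 and 296 CPM against 389, 389.6 and 379 CPM, and Fosl2, an AP-1 member, 49.5, 48.3 and 49.6 CPM against 78.1, 81.5 and 76.5 CPM. In the other direction Jun had 129.6, 122 and 122 CPM with the agonist against 62, 60.9 and 60 CPM in controls, and Batf rose as given above. Feedback inhibitors of the MAP kinases were lower in 9 of 15, with a median log2 fold change of -0.27, and only Dusp14 rose. Dusp4, Dusp5, Dusp6 and Spry1 had log2 fold changes of -0.27 ± 0.03, -0.36 ± 0.04, -0.78 ± 0.08 and -0.48 ± 0.05 (SE). Genes of the receptor complex itself were also lower: Cd3e had 233, 211 and 228 CPM against 286, 289 and 284 CPM, Trac 304, 279.7 and 274 CPM against 368, 369 and 368 CPM, and Cd5, which dampens TCR signals, 476, 467 and 474 CPM against 616, 599 and 606 CPM. In the marker list of Tregs and T cells, 6 of 10 genes were lower and 1 higher.

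All 8 GIMAP genes, small GTPases of resting lymphocytes that lie in a cluster on chromosome 6, were lower, with a median log2 fold change of -0.40. Gimap4 had 163, 159.9 and 149 CPM with the agonist against 296, 291 and 285 CPM in controls, and Gimap3 285, 293 and 298 CPM against 446, 435 and 429 CPM. Among 24 genes of resting and recirculating T cells 7 were higher and 11 lower. Foxp1, a factor that keeps T cells quiescent, had 187, 186 and 185 CPM against 298, 301 and 294 CPM. Actn1, a crosslinker of actin, went up, at 240.3, 226 and 247 CPM against 138, 138 and 136 CPM. Integrins and adhesion genes were lower in 9 of the 19 tested (21 listed) and higher in 5: Itgb7 had 139, 127 and 133 CPM against 211, 203 and 204 CPM, and Itga6 86.3, 94.8 and 94.6 CPM against 142, 135 and 134 CPM. The higher count was 3 without the libraries above 10000 CPM of the ribosomal locus.

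Interferon-stimulated genes were lower in 18 of 37 and higher in 3, with a median log2 fold change of -0.39. Gbp7, a guanylate-binding GTPase, had 63.3, 66.3 and 69.7 CPM with the agonist against 117, 107 and 114 CPM in controls. Zbp1, a sensor of Z-form nucleic acids, had 18, 18.7 and 17.9 CPM against 29.2, 28.3 and 29.7 CPM, and Isg20, an exonuclease, 2.61, 2.3 and 2.25 CPM against 5.76, 5.37 and 6.38 CPM. Mx1, Isg15 and Ifit1 were not called. Without the libraries above 10000 CPM of the ribosomal locus 11 of the list were called lower and 1 higher. The higher count was also 1 without control replicate 2 alone, and with the share of that locus as a covariate. Outside this list, the interferon-inducible genes Ifi209 and Mndal had 8.27, 9.21 and 8.2 CPM and 26.2, 28 and 25.8 CPM with the agonist, against 25, 22.2 and 20.3 CPM and 56.6, 51.5 and 56 CPM in controls. These belong to a family of related neighbours on chromosome 1, and reads may be shared out among its members.

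The largest falls among genes of at least 5 CPM included Lars2 and Rn7sk, which moved with the ribosomal locus: Lars2 had 250.3, 169.5 and 208 CPM with the agonist against 695, 1446 and 529 CPM in controls, and Rn7sk 9.6, 5.17 and 6.59 CPM against 23.4, 53.5 and 17.6 CPM. Control replicate 2, the library highest in the ribosomal locus, was also the highest in both. With the share of that locus as a covariate neither was called, with edgeR adjusted p of 0.146 for Lars2 and 0.543 for Rn7sk, and without control replicate 2 the values were 0.122 and 0.160. Ctla2a, a cysteine protease inhibitor, had 2.03, 3.33 and 3.38 CPM against 11, 9.06 and 8.71 CPM, and Emp1, a membrane protein of the PMP22 family, 2.77, 3.15 and 2.9 CPM against 8.62, 8.2 and 9.7 CPM. Epcam, a cell adhesion molecule, had 5.17, 5.73 and 4.66 CPM against 15.2, 14.8 and 15.7 CPM. Itih5, of the inter-alpha-trypsin inhibitor family, had 27.2, 27.1 and 28 CPM with the agonist, against 69.6, 67.2 and 68.8 CPM in controls. Specc1, Ramp1, Srgap3, Scml4, Rassf8, Tmem71 and Pigr also belonged to the 20 largest falls, with log2 fold changes between -1.56 and -1.27.

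Windows of fallen genes were searched for the AP-1 letters TGANTCA in the same way, and 3 are shown for genes among the largest falls that carry a match, marked in capitals and chosen after their values were seen.
Fgl2 (chr5:21372423-21372722, plus strand): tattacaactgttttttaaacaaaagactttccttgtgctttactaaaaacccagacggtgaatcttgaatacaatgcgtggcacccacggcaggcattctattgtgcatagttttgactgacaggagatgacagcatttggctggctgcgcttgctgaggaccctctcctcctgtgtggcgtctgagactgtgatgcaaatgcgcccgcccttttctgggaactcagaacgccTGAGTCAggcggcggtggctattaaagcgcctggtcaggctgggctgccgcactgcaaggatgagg
Emp1 (chr6:135362681-135362980, plus strand): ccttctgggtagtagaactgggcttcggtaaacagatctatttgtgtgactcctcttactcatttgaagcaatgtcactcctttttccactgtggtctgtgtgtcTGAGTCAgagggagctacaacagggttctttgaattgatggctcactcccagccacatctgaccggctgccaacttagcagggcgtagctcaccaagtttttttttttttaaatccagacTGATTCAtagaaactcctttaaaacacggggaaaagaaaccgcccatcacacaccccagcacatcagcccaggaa
Ctla2a (chr13:60936517-60936816, minus strand): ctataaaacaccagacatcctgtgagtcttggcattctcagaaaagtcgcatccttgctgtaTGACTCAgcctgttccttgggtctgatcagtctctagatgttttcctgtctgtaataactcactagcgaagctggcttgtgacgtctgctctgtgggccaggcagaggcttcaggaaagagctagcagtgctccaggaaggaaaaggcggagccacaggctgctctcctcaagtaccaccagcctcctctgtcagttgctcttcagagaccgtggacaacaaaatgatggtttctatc
An AP-1 match was present in 4.89% of windows of tested genes, in 7.50% of windows of genes called lower and in 4.56% of windows of genes called higher. Among genes that fell at least 2-fold from at least 5 CPM it was present in 12 of 50 windows, or 24.0%, and among genes that rose as much in 6 of 89, or 6.74%. The 12 windows belong to 8 genes, Apol9b, Ctla2a, Emp1, Fgl2, Gpr146, Ifi203, Ifi209 and Mndal, of which the last 3 are related neighbours. No test was made of these shares.

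Genes of the IL-2 response were mixed, with 7 of 24 higher and 9 lower. Stat5a, the factor that IL-2 activates, had 595, 601 and 619.5 CPM with the agonist against 379, 376 and 369 CPM in controls. Ccnd2, a cyclin of the G1 phase, had 2725, 2596 and 2698 CPM against 1717, 1735 and 1728 CPM, and Pim1, a survival kinase, 631, 607 and 612 CPM against 483, 468 and 481 CPM. Neither Il2ra nor Il2rg, Jak1, Jak3 and Cish was called in the fit of all libraries. In an edgeR fit of the 6 libraries alone Il2rg was called higher, with a log2 fold change of 0.07. In the BCL2 family, 4 of 23 tested genes (26 listed) were higher (17.4%) and 5 lower (21.7%), beside 12.7% and 13.1% of all genes. Protectors moved in opposite directions. Bcl2l1, which encodes BCL-XL, had 484, 489 and 497 CPM with the agonist against 324, 328 and 327 CPM in controls, while Bcl2 had 95.7, 95.8 and 90.8 CPM against 164, 161 and 149 CPM. Bcl2l11, which encodes the killer BIM, was lower too, at 15.4, 13.6 and 13.7 CPM against 25.4, 25.2 and 21.8 CPM. The lower count of the BCL2 family was 2 without 4-1BB agonist replicate 1, without its replicate 2 and without control replicate 3, 3 without control replicate 2, and 2 by DESeq2 and without the libraries above 10000 CPM of the ribosomal locus.

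Called genes of cell division were mostly higher, in small steps. DNA replication and S phase genes were higher in 18 of 39 and lower in 1, with a median log2 fold change of 0.11, and G2 and mitosis genes higher in 12 of 30 and lower in 0 by edgeR and DESeq2 (2 by unadjusted p below 0.05). Lig1, which joins DNA strands, had 239, 226 and 238 CPM with the agonist against 181, 192 and 194 CPM in controls, and Uhrf1, which copies DNA methylation, 351, 364 and 368 CPM against 299, 302 and 315 CPM. Nusap1, a spindle protein, had 31.7, 31.6 and 31.3 CPM against 24.2, 24.1 and 21.6 CPM. Of 35 genes of ribosome biogenesis and MYC targets 14 were higher and 1, Odc1, lower, and of 18 heat shock and chaperone genes 9 were higher; Hsp90ab1 had 6030, 5983 and 6252 CPM against 5124, 5346 and 5307 CPM. Nuclear genes of oxidative phosphorylation were higher in 9 of 39 (23.1%), beside 12.7% of all genes. Of the 11 tested mitochondrially encoded genes 0 were called by edgeR and 1 had an unadjusted p below 0.05. DESeq2 and limma-voom also called 0 of them, and edgeR with the replicate block called 6 lower. These counts depend on few libraries. Without those above 10000 CPM of the ribosomal locus the higher counts were 9 for S phase, 4 for G2 and mitosis, 2 for ribosome biogenesis, 4 for heat shock and 1 for oxidative phosphorylation. The G2 and mitosis count was 7 without 4-1BB agonist replicate 1, 6 without its replicate 2 and 7 without control replicate 2, ribosome biogenesis was 8 without control replicate 1, and oxidative phosphorylation 4 without 4-1BB agonist replicate 1 and 5 without control replicate 1.

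Other metabolic and stress lists held called genes in both directions, and shares near the 12.7% higher and 13.1% lower of all genes are no result about a list. Glycolysis had 4 higher (16.7%) and 5 lower (20.8%) of 24, and 2 higher without 4-1BB agonist replicate 3 alone or without the libraries above 10000 CPM of the ribosomal locus. In that list Hk2, which traps glucose in the cell, had 221, 209 and 221 CPM with the agonist against 161, 169 and 167 CPM in controls. Pdk1, which inhibits pyruvate dehydrogenase, had 68.8, 71.3 and 70.2 CPM against 87.9, 92.2 and 89.8 CPM. Cholesterol synthesis and uptake had 3 higher and 3 lower of 24 tested (12.5% each), and 0 in either direction by edgeR without the libraries above 10000 CPM of the ribosomal locus. Hypoxia response genes had 2 higher (9.52%), Adm and Ero1l, and 4 lower (19.0%) of 21, and p53 targets 7 higher (33.3%) and 6 lower (28.6%) of 21. Among the p53 targets Cdkn1a, the cell cycle inhibitor p21, had 54, 54.8 and 56.2 CPM against 44.3, 40.6 and 37.7 CPM. ER stress and amino acid response genes had 5 higher (16.1%) and 8 lower (25.8%) of 31; Sesn2, a sensor of leucine, had 35.1, 39.1 and 40.7 CPM against 23.8, 22.6 and 23.5 CPM and Xbp1, a factor of the unfolded protein response, 109, 113 and 107 CPM against 142, 136 and 136 CPM. The lower counts of p53 targets and of ER stress genes were 2 and 4 without the libraries above 10000 CPM of the ribosomal locus, and the higher count of ER stress genes was then 3. Their lower count was also 4 without control replicate 2 alone, and 5 with the share of that locus as a covariate.

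The 4-1BB agonist was then set directly against each other agonist at 18 h, with doses that were not matched. It differed from the TNFR2 agonist in 796 genes (5.56% of those tested), 355 higher (2.48%) and 441 lower (3.08%), from the DR3 agonist in 1222 (8.54%), 613 higher (4.28%) and 609 lower (4.25%), and from the OX40 agonist in 610 (4.26%), 306 higher (2.14%) and 304 lower (2.12%). The first count was 382 without TNFR2 agonist replicate 2, 425 and 432 without replicates 1 and 2 of the 4-1BB agonist and 433 without TNFR2 agonist replicate 1, and the OX40 count was 958 without replicate 1 and 280 without replicate 2 of that agonist. In 155 genes (1.08%) the 4-1BB agonist libraries differed from the control and from all 3 other agonists in the same direction, 109 higher (0.762%) and 46 lower (0.321%). Without 4-1BB agonist replicate 1 there were 95 such genes, and without the libraries above 10000 CPM of the ribosomal locus 85. These contrasts share the 4-1BB libraries and are not independent of each other.

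Cacnb3 was highest with the 4-1BB agonist, at 64.1 ± 2.75 CPM, against 29.2 ± 1.16 CPM with the TNFR2 agonist, 18.3 ± 0.208 CPM with the DR3 agonist, 20.7 ± 2.63 CPM with the OX40 agonist and 4.18 ± 0.423 CPM in controls (SD). The log2 difference of the 4-1BB agonist was 1.13 ± 0.06 from the TNFR2 agonist, 1.81 ± 0.07 from the DR3 agonist and 1.63 ± 0.07 from the OX40 agonist (SE). Adm averaged 24.7 ± 1.56 CPM with the 4-1BB agonist, against 10.5 ± 0.976, 8 ± 0.779 and 10.6 ± 0.186 CPM with the TNFR2, DR3 and OX40 agonists and 2.34 ± 0.417 CPM in controls. Csf2 had 6.24 ± 0.492 CPM, against 2.26 ± 0.564, 2.48 ± 0.463, 2.02 ± 0.409 and 0.704 ± 0.15 CPM in the same order. In each of these 3 genes every agonist group lay above the control and the 4-1BB agonist above all of them. Scin was otherwise: it had 119 ± 5.49 CPM with the 4-1BB agonist and 109 ± 4.93 CPM with the TNFR2 agonist, a log2 difference of 0.13 ± 0.05 that was not called (SE; edgeR adjusted p = 0.131), and 55.9 ± 4.86 CPM with the DR3 and 54.1 ± 0.887 CPM with the OX40 agonist. Sema4a, Wnt3, Zbtb46, Batf, Cd80, Ebi3, Fas and Tnfaip3 also belonged to the 109 higher genes. Traf1, Birc2 and Tab2 of 4-1BB signalling did so too. Other genes of the pathway did not: Nfkb2 averaged 755 ± 6.1 CPM with the 4-1BB agonist and 762 ± 19.5 CPM with the TNFR2 agonist, and neither it nor Nfkbia and Birc3 was called between these agonists. Relb was lower with the 4-1BB agonist than with the TNFR2 agonist, by a log2 difference of -0.14 ± 0.04 (SE; edgeR adjusted p = 0.0373).

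Genes that were lower with the 4-1BB agonist than in every other group at 18 h included receptors of the TNF superfamily and Treg genes. Tnfrsf9 averaged 415 ± 4.64 CPM with the 4-1BB agonist, against 501 ± 32.9, 528 ± 3.67 and 522 ± 21.2 CPM with the TNFR2, DR3 and OX40 agonists and 565 ± 9.47 CPM in controls (SD). Tnfrsf1b averaged 337 ± 4.84 CPM, against 366 ± 8.43, 398 ± 24.5, 400.3 ± 6.25 and 505 ± 3.62 CPM in the same order. Tigit averaged 46.4 ± 1.57 CPM, against 61.6 ± 1.58, 79.4 ± 3.73, 87.3 ± 7.48 and 115 ± 3.62 CPM. Izumo1r, Gpr83, Entpd1, Ccr8, Il2rb, Itgb7, Epcam and Mndal were further members. Pcyt1a, an enzyme of phosphatidylcholine synthesis, had 58.5 ± 1.32 CPM with the 4-1BB agonist, against 78.2 ± 0.454 and 85 ± 2.09 CPM with the TNFR2 and DR3 agonists, 97.2 ± 2.28 CPM with the OX40 agonist and 96.2 ± 0.719 CPM in controls.

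**Figure D4:**
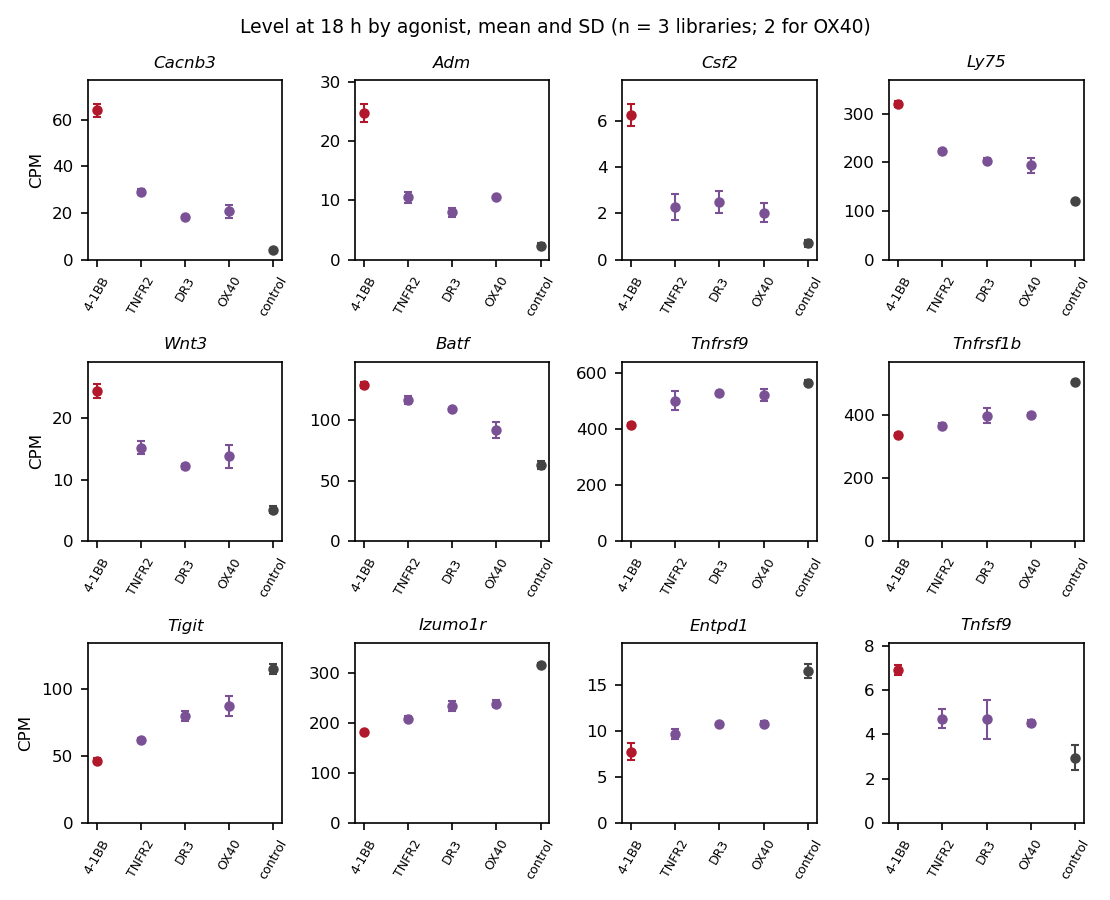
Level of 12 genes in CPM at 18 h with the 4-1BB, TNFR2, DR3 and OX40 agonists and in controls, from left to right, as mean and SD of 3 libraries (2 for OX40). The 12 genes were picked from the 155 that stand apart in the 4-1BB agonist group. Cacnb3, Adm, Csf2, Ly75, Wnt3, Batf and Tnfsf9 are highest there, and Tnfrsf9, Tnfrsf1b, Tigit, Izumo1r and Entpd1 lowest.

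Some genes went with other agonists more than with that of 4-1BB. Wnt10b had 11.8 ± 0.552 CPM with the 4-1BB agonist, against 18.7 ± 0.75 CPM with the TNFR2 agonist and 5.57 ± 0.157 CPM in controls, a log2 difference of -0.67 ± 0.07 from the TNFR2 agonist (SE; edgeR adjusted p = 1.92e-09). Il2 had 3.8 ± 0.402 CPM with the 4-1BB agonist, against 2.3 ± 0.794 CPM with the TNFR2, 5.87 ± 0.0249 CPM with the DR3 and 6.39 ± 0.0519 CPM with the OX40 agonist. It was higher than with the TNFR2 agonist and lower than with the other two, and against the control it was not called.

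The comparison was repeated in separate libraries at 36 h, which share no library with those at 18 h. There 3215 genes were called, 1566 higher (10.9%) and 1649 lower (11.5%). Of the 1814 genes higher at 18 h, 930 were higher at 36 h too (6.5% of all genes), which is 51.3% of the 18 h list and 59.4% of the 36 h list, and 21 were lower. Of the 1876 genes lower at 18 h, 1071 were lower at 36 h (7.48% of all genes), 57.1% and 64.9% of the lists, and 23 were higher. Of the 237 genes that rose at least 2-fold at 18 h, 174 were called higher at 36 h, and of the 233 that fell as much 122 were called lower. Nfkb2, Tnfaip3 and Traf1 had log2 fold changes of 0.93 ± 0.03, 0.65 ± 0.04 and 0.73 ± 0.03 at 36 h (SE), Tigit -0.96 ± 0.05 and Il10 -1.22 ± 0.10. All 8 GIMAP genes were again lower at 36 h, with a median log2 fold change of -0.26 there.

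A test of the difference between the 36 h and the 18 h effect called 626 genes (4.37%), 335 with a more positive (2.34%) and 291 with a more negative effect at 36 h (2.03%). Cacnb3 rose less at 36 h, where it averaged 22.3 ± 1.84 CPM with the agonist against 4.67 ± 0.412 CPM in controls, and a log2 fold change of 2.26 ± 0.09 (SE). Ly75, Slamf6 and Ncf1 did likewise, with log2 fold changes of 0.54 ± 0.04, 0.21 ± 0.05 and 0.53 ± 0.04 at 36 h, against 1.40 ± 0.04, 1.02 ± 0.04 and 1.31 ± 0.04 at 18 h. Tnfrsf9 turned: it averaged 492 ± 8.31 CPM with the agonist against 434 ± 5.23 CPM in controls at 36 h. The log2 fold change there was 0.18 ± 0.04 (SE; edgeR adjusted p = 0.000109), and the difference between the effects was 0.62 ± 0.05 (edgeR adjusted p = 8.41e-13).

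Among genes described at 18 h, several had a smaller effect at 36 h by the same test. Stat5a had a log2 fold change of 0.21 ± 0.03 at 36 h and 0.69 ± 0.03 at 18 h (SE), Actn1 0.25 ± 0.04 and 0.79 ± 0.04, and Adm 2.13 ± 0.12 and 3.40 ± 0.12. Gimap4 fell less at 36 h, at -0.26 ± 0.04 against -0.89 ± 0.04, as did Ctla4, at -0.10 ± 0.04 against -0.54 ± 0.04, and Ccr8, at -0.10 ± 0.03 against -0.56 ± 0.04. Eomes, a T-box transcription factor of cytotoxic lymphocytes, averaged 22.8 ± 0.711 CPM with the agonist against 28 ± 1.14 CPM in controls at 36 h (SD, n = 3 each), and had 9.65, 12.8 and 10.7 CPM against 5.54, 5.59 and 5.54 CPM at 18 h. Its log2 fold change was -0.30 ± 0.07 at 36 h and 1.00 ± 0.10 at 18 h (SE), with edgeR adjusted p = 1.38e-10 for the difference. Gzmb had log2 fold changes of 0.09 ± 0.06 at 36 h and -0.82 ± 0.09 at 18 h (SE). Foxp3 was not called at 36 h, with a log2 fold change of 0.01 ± 0.04 (SE; edgeR adjusted p = 0.852). At 36 h the libraries above 10000 CPM of the ribosomal locus were all of the TNFR2, DR3 and OX40 agonists. Neither 36 h group of this test loses a library when they are left out. Without the libraries above 10000 CPM of the ribosomal locus, of which 3 are at 36 h, the test of the difference called 240 genes, and 613 genes were called higher at both times.

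**Figure D5:**
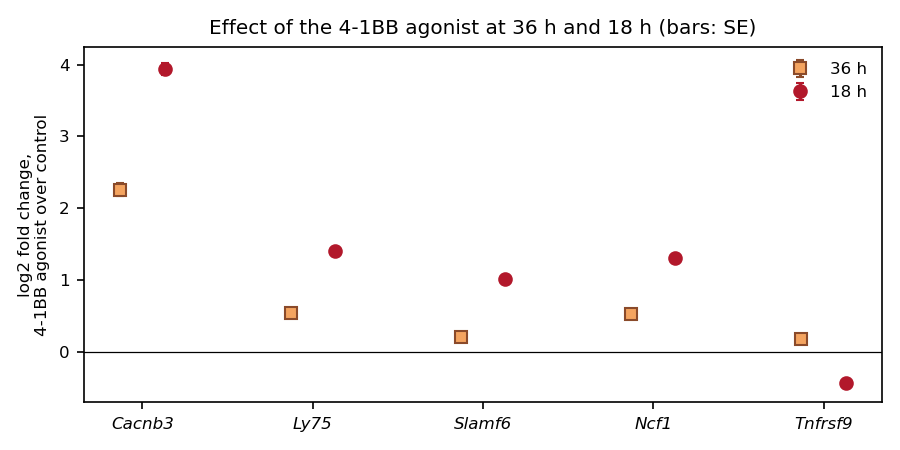
Log2 fold change of 4-1BB agonist over control at 36 h (squares) and 18 h (circles) for 5 of the genes with the smallest p of a difference between the times; bars are SE and are mostly smaller than the symbols. Tnfrsf9 lies at 0.18 at 36 h and -0.44 at 18 h, and Cacnb3 at 2.26 and 3.94.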

How the data were processed

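Per the labels' protocols, RNA was taken with NucleoSpin RNA XS and libraries were made with SMART-Seq v4, which does not mark strand. Per the submitters' processing notes, FastQC, Trimmomatic, STAR 2.5.3a and RSEM 1.2.28 were used with mm10. Neither annotation release nor strandedness of counting is stated there. The authors deposited expected counts and TPM per gene for each library. Rounding made the expected counts whole, and CPM were computed from them with TMM-scaled library sizes. The deposited TPM served only to set levels of genes side by side.

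All 32 libraries of 11 groups entered one edgeR 4.0.16 quasi-likelihood fit (robust, in R 4.3.3), so that the groups share an estimate of the spread. Of 54087 listed genes, 53973 matched a single gene of GENCODE M21, which gave coordinates, and 14313 passed edgeR's filter on low counts. P-values are two-sided and adjusted by Benjamini-Hochberg over these genes, and SE is the log2 fold change divided by the square root of F. Fold changes of genes with counts near 0 depend on edgeR's prior count. On simulated counts for this comparison, over 14313 genes, 84% of 100 genes changed by 0.5 on the log2 scale were called. Of 100 genes changed by 1, 97% were called, and there were 6 false calls. The simulation gave every gene the same spread and changed no gene of low count. It held no difference of the ribosomal locus between the groups, so these shares may not hold for the data.

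The comparison, the gene lists and the rules were chosen with earlier results of these data known, so no list is independent evidence. Genes are named by rule. It takes the 20 largest changes each way of at least 5 CPM without overlap of the libraries, and the 6 members of each list with the smallest p. Whole lists are taken for 4-1BB signalling, NF-kB subunits and inhibitors and the TNF families. From other agonists the rule takes the 6 largest differences each way, and between times the 6 genes with the smallest p of a difference. List members outside this rule (such as Cd86, Nr4a1, Fosl2, Ikzf4, Lag3, Lrrc32, the class I genes and genes named as not called) were picked after their values were seen. A few genes that the rule names are not reported here. Alternatives were DESeq2 1.42.0, limma-voom 3.58.1, other size factors, filters and covariates, a replicate block, and leaving out libraries; those on the ribosomal locus were added after the data were seen. Within the 4-1BB agonist and control groups at 18 h, no 2 libraries of the same group agreed within sampling noise. Chi-square per degree of freedom was 2.13 to 17.96 between replicates, and other groups were not examined. The values 12.71 and 17.96 were those of control replicate 2 against replicates 1 and 3. That library had 26260 CPM of the ribosomal locus, which the measure includes, against 10360 and 8254 CPM.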

Additional observations from a re-analysis of the deposited data

Results flagged for a closer look

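The effect of the 4-1BB agonist differed between 36 h and 18 h, by a test of the difference itself, in 5 genes that were named for a small p of that test. Given as the 36 h effect minus the 18 h effect on the log2 scale, the difference was -1.68 ± 0.13 for Cacnb3, -0.86 ± 0.05 for Ly75, -0.80 ± 0.06 for Slamf6 and -0.78 ± 0.06 for Ncf1 (SE), all of which rose less at 36 h. It was 0.62 ± 0.05 for Tnfrsf9, higher with the agonist at 36 h and lower at 18 h. Over the 5 genes the edgeR adjusted p of the difference lay between 3.25e-17 and 8.41e-13. The 36 h groups have 3 libraries each, and levels with their SD are given with the comparison of times.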

How the results depend on the processing

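Of the 3324 values of 210 named genes under alternatives, 3249 kept their side of the threshold, and 75 crossed it, in 26 genes. Direction reversed in 0 values of genes called in the main fit or the alternative. Changes of sign in genes called in neither fit were not counted. Without the libraries above 10000 CPM of the ribosomal locus, 1888 genes were called against the control, 285 against the TNFR2 agonist, 85 apart from control and all agonists, and 240 between times; that setting leaves 1 control library at 18 h. Requiring a mean of 5 CPM left 130 genes of at least 2-fold change. The 3690 calls were 3684 with DESeq2 size factors, 3366 with DESeq2, 3671 with limma-voom, 3425 without a filter and 3206 at a mean of 5 CPM. Leaving out 1 library at a time gave 3026 to 3213 calls against the control, 426 to 469 of at least 2-fold, 382 to 1156 against the TNFR2 agonist, 853 to 1091 against the DR3 agonist, 280 to 958 against the OX40 agonist, 95 to 151 apart from all, and 485 to 590 between times; where an arm kept 1 library, it was taken to vary like the other groups. Agonist and control libraries with the same replicate number in the labels had correlations of -0.0155, -0.0927 and 0.00485 over 9524 genes, in deviations from the group mean. With so few libraries in each group, these values cannot show whether the numbers mark a shared batch. With the number as a replicate block, and only the libraries of the comparison, 4591 genes were called against the control (4631 without the block) and 101 stood apart from all. Of 1356 counts over lists and times, 126 moved by more than 1.5 times. Depth limits low genes: 12.3% of 4675 genes under 5 CPM were called, against 32.3% of 9638 above.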
